A study of Mus musculus with 6 samples.

Results

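Interleukins are secreted signals between immune and tissue cells, and they act through receptor chains on the cell surface. The genes described here are those whose mouse symbol begins with Il and a digit, which takes in ligands, receptor chains, soluble inhibitors and a few genes that carry the name by homology or partnership. The rule kept probe sets annotated to exactly 1 such symbol and averaged the probe sets of a gene, and it found 115 probe sets for 73 genes of 18193 genes in all. Of the 73 genes, 46 were read by 1 probe set and 27 by several, with at most 5. Expression was measured on Affymetrix whole-genome mouse arrays in whole cardiac ventricles of 3 mice that overexpressed COUP-TFII (OE, genotype Myh6-MerCreMer; CAG-S-COUP-TFII) and 3 control mice (CTRL, genotype Myh6-MerCreMer). The OE allele is an inducible COUP-TFII transgene, COUP-TFII being an orphan nuclear receptor encoded by *Nr2f2*, and its expression depends on Cre. The Cre in both groups is a tamoxifen-activated fusion driven by the *Myh6* promoter, which is active in cardiomyocytes, so the control mice carried and activated it too. All 6 mice were of a mixed 129SvEv/C57Bl6/J background and 2.5 months of age, received tamoxifen at 40 mg/kg/day for 3 days, and gave their ventricles 16 days after the first dose. The comparison asked which ventricular transcripts differ when cardiomyocytes are made to express COUP-TFII in the adult heart.

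Each deposited value is a log2 value set relative to the median of the 6 arrays for its probe set, so a value of 0 is that median and nothing is known of how abundant a transcript was. For the same reason the labelled tissue could not be checked by the presence or absence of its defining genes. Where a gene had 1 probe set and its groups did not overlap, the lowest value of the higher group and the highest value of the lower group mirror each other around 0. A gene was called when limma's moderated test gave an adjusted p under 0.05 after Benjamini-Hochberg adjustment over all 18193 genes, two-sided, with 3 arrays in each group. An exact permutation test of 3 against 3 cannot go below p = 0.1, so no single-gene exact test is given. The probe set of *Nr2f2* that differed most stood 3.49 higher in OE ventricles on the log2 scale, while the other 5 probe sets of the gene were not called. Among all genes, 26.7% were called, 14.9% higher and 11.8% lower in OE ventricles, and arrays of a group lay nearer to each other (root mean square distances over genes of 0.194 to 0.215 among OE and 0.208 to 0.233 among CTRL arrays) than to those of the other group (0.375 to 0.427).

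The interleukins fall into families by shared receptor chains. The IL-1 group signals through receptors that recruit the adaptor MyD88 and activate NF-kB. Most but not all of the IL-6 group signals through the shared chain gp130 and STAT3. The common gamma chain group acts through JAK and STAT5 or STAT6 in lymphocytes, and the IL-10 group through class II cytokine receptors. The IL-17 group uses a separate receptor family that also activates NF-kB. In the heart, fibroblasts, endothelial cells, resident macrophages and cardiomyocytes can make or receive several interleukins. IL-6, IL-33 and IL-15 are among those studied there.

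Of the 73 interleukin genes, 4 were higher and 10 were lower in OE ventricles, and 59 were not called. *Il6*, a ligand that binds gp130, was 3.78-fold higher, *Il18bp*, a secreted protein that binds and blocks IL-18, was 2.14-fold higher, and *Il33*, a nuclear alarmin released from damaged tissue cells, was 1.98-fold higher. *Il15*, a ligand for natural killer and memory T cells, was 2.72-fold lower, and *Il15ra*, the chain that presents IL-15 to neighbouring cells, was 1.63-fold lower. The 14 called genes are 19.2% of the members, below the 26.7% of all genes, and by direction 5.48% of members were higher (14.9% of all genes) and 13.7% lower (11.8%). The median change of the members was log2 −0.10 against −0.03 over all genes, and 69.9% of members had a change below 0 against 55.8% of all genes. The groups did not overlap for 21 members (28.8%), 6 of them higher in OE, against 45.6% of all genes. Beside the 14 called genes these were *Il17ra* and *Il21r*, higher in every OE array, and *Il27ra*, *Il31ra*, *Il24*, *Il17rb* and *Il12rb1*, lower in every OE array. The differences of the 59 uncalled genes lay between log2 −0.31 and 0.28. The 5 genes named with folds above were the called members that changed by more than 1.5-fold, 6.85% of members against 7.73% of all genes. The study's methods name one-way analysis of variance, used there after a filter on expression and with a 1.2-fold limit. Run here on gene means without that filter or limit, it called 5 members, 6.85% against 14.1% of all genes. These were *Il6*, *Il18bp*, *Il17rc*, *Il15* and *Il17re*, and the adjusted p of the other 9 called members was 0.0569 to 0.135 with it. Centring each array on 42 ribosomal protein genes, whose median change was log2 0.21, lowered the change of every gene alike and moved the median of all genes to log2 −0.23. With it 3 members (4.11%) were called higher, where 7.57% of all genes were, and 42 members (57.5%) lower, where 48.1% of all genes were. The number of decreases therefore depends on what is held level.

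**Figure D1:**
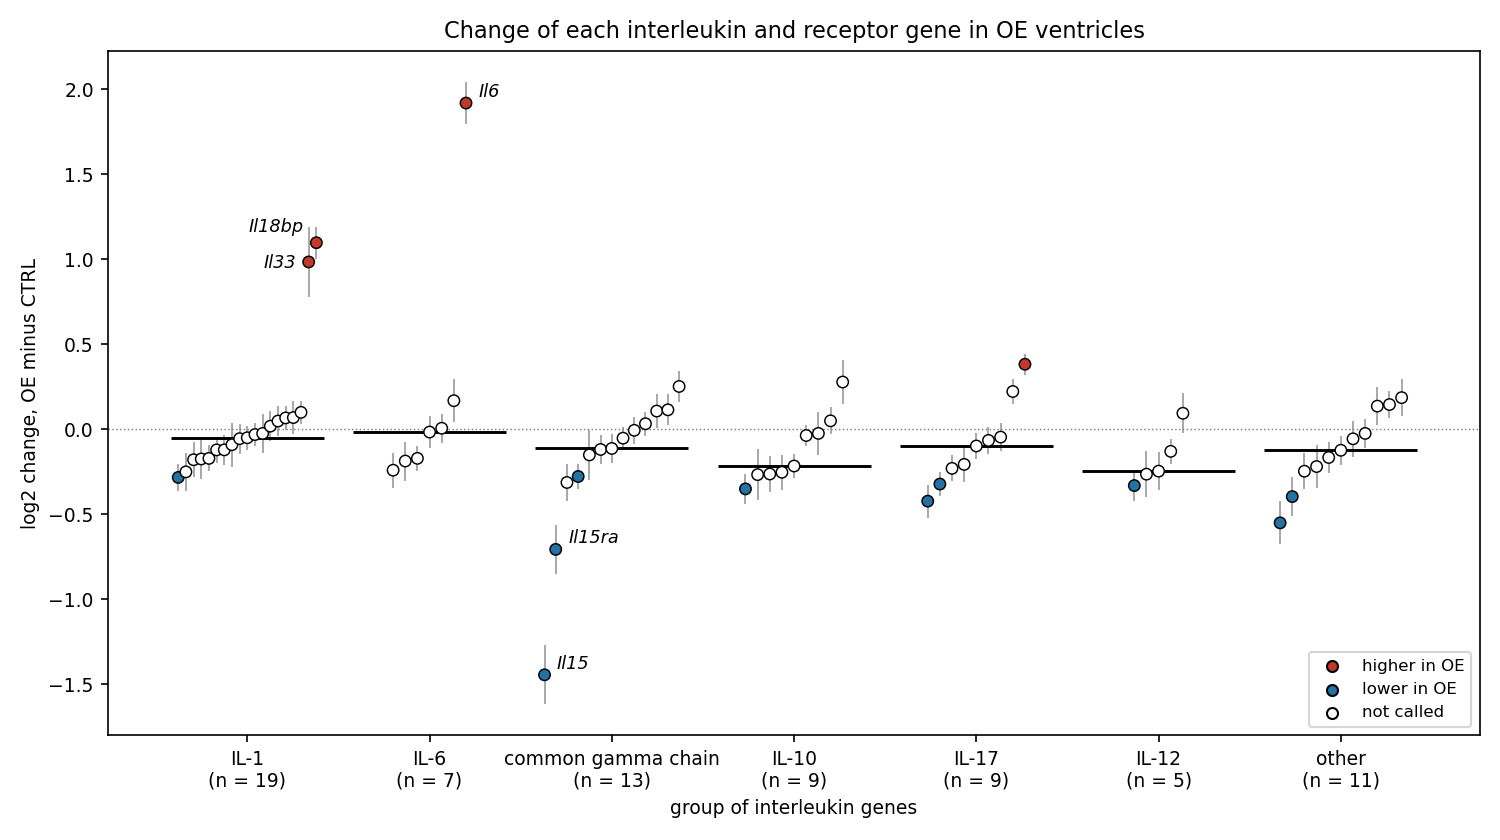
Log2 change, OE minus CTRL, of each of the 73 interleukin genes by family, placed by size within the family. Red points are the 4 genes called higher, blue points the 10 called lower and white points the 59 not called, error bars are standard errors, and the bar is the family median. *Il6* at 1.92 and *Il15* at −1.45 stand furthest from 0.

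*Il6* stood at 0.80, 1.31 and 1.10 in OE ventricles, against −0.93, −0.80 and −0.82 in CTRL ventricles. Every OE array lay far above every CTRL array, and the CTRL arrays lay close together. Group means were 1.07 ± 0.25 in OE and −0.85 ± 0.07 in CTRL ventricles (SD, n = 3 each), a difference of log2 1.92 (SE 0.12, 95% interval 1.63 to 2.21, adjusted p = 0.000168). *Il18bp* stood at 0.74, 0.43 and 0.64 in OE ventricles, against −0.43, −0.57 and −0.48 in CTRL ventricles. All OE arrays were above all CTRL arrays, and the difference was log2 1.10 (SE 0.09, 95% interval 0.88 to 1.32, adjusted p = 0.000425). *Il33* stood at 1.03, 0.16 and 0.66 in OE ventricles, against −0.58, −0.16 and −0.35 in CTRL ventricles. OE array 2 lay far nearer to the CTRL arrays than the other OE arrays did, though the groups did not overlap, and the difference was log2 0.98 (SE 0.21, 95% interval 0.50 to 1.46, adjusted p = 0.0122). Analysis of variance gave *Il33* an adjusted p of 0.0920.

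RefSeq promoters of GRCm38.p6, each 250 bases before to 50 bases after the annotated start, are shown for the 2 genes that rose most and for the neighbouring IL-17 receptor genes that moved in opposite directions. Motifs were searched on both strands as an NF-kB site, AP-1 (TGANTCA), STAT (TTCNNNGAA), C/EBP (TTGCNNAA) and the nuclear receptor half-site (AGGTCA). Capitals mark the letters of every match, and no matches overlapped in these windows.
*Il6*, chr5:30012864-30013163, plus strand: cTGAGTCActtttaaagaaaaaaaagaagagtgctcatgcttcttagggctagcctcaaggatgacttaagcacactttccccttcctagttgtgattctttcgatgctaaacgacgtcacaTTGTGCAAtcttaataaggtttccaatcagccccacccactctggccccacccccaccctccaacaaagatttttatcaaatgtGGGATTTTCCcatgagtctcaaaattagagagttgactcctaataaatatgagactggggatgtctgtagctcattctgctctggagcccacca
*Il18bp*, chr7:102018183-102018482, minus strand: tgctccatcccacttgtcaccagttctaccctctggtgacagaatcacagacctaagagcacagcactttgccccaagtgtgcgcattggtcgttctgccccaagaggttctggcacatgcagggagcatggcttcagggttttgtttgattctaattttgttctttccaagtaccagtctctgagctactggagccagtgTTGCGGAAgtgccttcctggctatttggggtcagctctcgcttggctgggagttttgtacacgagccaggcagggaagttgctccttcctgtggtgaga
*Il17rc*, chr6:113471205-113471504, plus strand: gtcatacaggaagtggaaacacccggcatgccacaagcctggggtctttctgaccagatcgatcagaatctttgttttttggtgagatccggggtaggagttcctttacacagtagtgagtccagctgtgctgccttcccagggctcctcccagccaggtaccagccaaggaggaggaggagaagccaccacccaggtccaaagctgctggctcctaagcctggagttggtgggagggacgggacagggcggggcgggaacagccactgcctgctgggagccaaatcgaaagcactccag
*Il17re*, chr6:113458521-113458820, plus strand: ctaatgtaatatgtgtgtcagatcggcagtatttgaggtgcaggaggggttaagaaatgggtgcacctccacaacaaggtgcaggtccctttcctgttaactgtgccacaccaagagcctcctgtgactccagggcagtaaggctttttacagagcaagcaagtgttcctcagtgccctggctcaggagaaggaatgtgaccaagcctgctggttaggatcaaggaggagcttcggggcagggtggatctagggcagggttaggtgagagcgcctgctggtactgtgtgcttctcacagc

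The *Il6* window held 3 matches counted from the start, AP-1 TGAGTCA at −249 to −243, C/EBP on the opposite strand at −128 to −121 and NF-kB at −44 to −35. The *Il18bp* window held 1, a C/EBP match at −49 to −42, and the *Il17rc* and *Il17re* windows held none of the motifs. Promoter windows were found for 57 of the 73 members, 70 windows in all. An AP-1 match lay in 20% of these windows and in 7.81% of all 32851 windows, a C/EBP match in 18.6% against 10.8%, a STAT match in 14.3% against 8.30%, an NF-kB match in 7.14% against 5.81% and the half-site in 15.7% against 16.3%. These are matches of letters only, and windows of neighbouring starts of a gene may share bases.

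**Figure D2:**
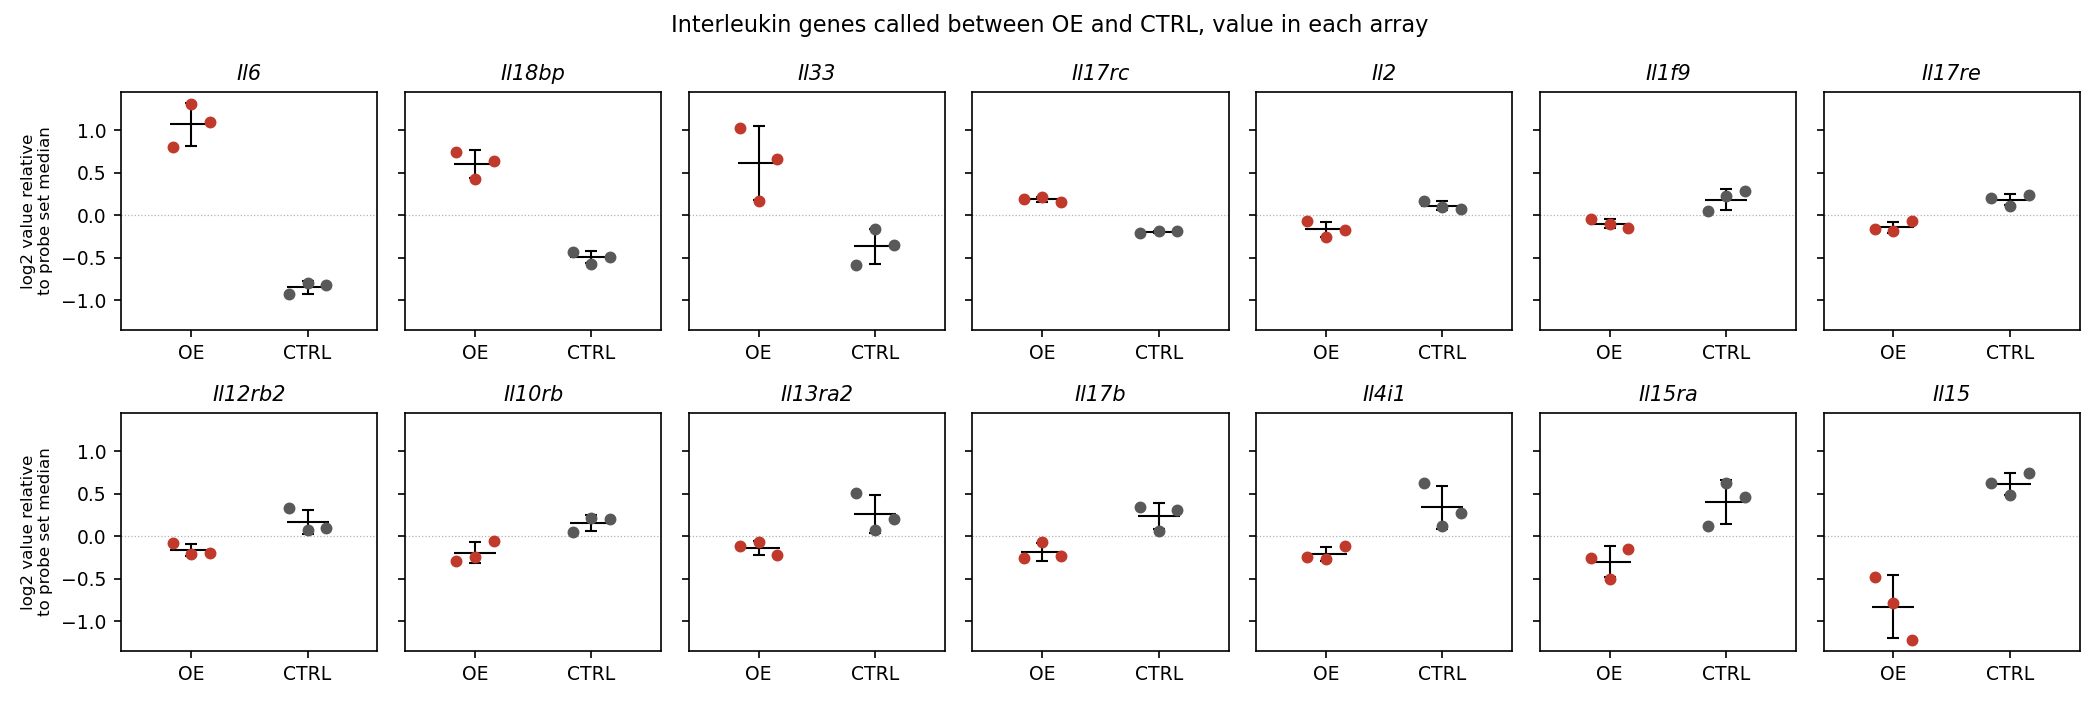
Values of the called interleukin genes on each array, log2 relative to the median of 6 arrays, with OE in red left of CTRL in grey, a bar for the mean and error bars for the SD of 3 arrays. In all 14 genes the OE and CTRL arrays do not overlap, and OE array 2 of *Il33*, at 0.16, lies near the CTRL arrays.

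In the IL-1 group, 2 of 19 genes rose, 1 fell and 16 were not called, with a median change of log2 −0.05. The called share was 15.8%, against 26.7% of all genes. The increases were the ligand *Il33* and the inhibitor *Il18bp*, and none of the 7 measured receptor chains was called, their changes lying between log2 −0.18 and 0.10. *Il1rl1*, the receptor chain for IL-33, was not analysed here. The classical ligands gave intervals that included 0, *Il1b* (log2 −0.09, 95% interval −0.39 to 0.21), *Il1a* (log2 −0.12, 95% interval −0.30 to 0.06) and *Il18* (log2 0.05, 95% interval −0.15 to 0.25), the target of the *Il18bp* product. The interval of *Il1b* leaves room for a change of up to 0.39 downward and 0.21 upward. The receptor *Il1r1* (log2 0.02, 95% interval −0.19 to 0.22), the shared chain *Il1rap* (log2 0.07, 95% interval −0.10 to 0.23) and the receptor antagonist *Il1rn* (log2 0.07, 95% interval −0.16 to 0.30) were likewise near 0. *Il1f9*, which encodes IL-36 gamma, stood at −0.05, −0.10 and −0.15 in OE ventricles, against 0.05, 0.22 and 0.29 in CTRL ventricles. The groups did not overlap but lay close. The decrease (log2 −0.28, SE 0.08, adjusted p = 0.0375) lost its call on leaving out any 1 OE array (highest adjusted p = 0.102), CTRL array 2 (0.0991) or CTRL array 3 (0.0995). The change stayed between log2 −0.35 and −0.23 in the fits without 1 array. Of the uncalled members, *Il1f6*, another IL-36 ligand, and *Il18rap*, the accessory chain of the IL-18 receptor, had the largest differences (log2 −0.25, adjusted p = 0.133 and log2 −0.18, adjusted p = 0.234). *Il1f6* stood at −0.32, −0.23 and 0.04 in OE ventricles, against 0.21, 0.08 and −0.04 in CTRL ventricles, and *Il18rap* at −0.13, −0.21 and 0.11 in OE ventricles, against 0.18, −0.04 and 0.17 in CTRL ventricles. In both the groups overlapped. The remaining ligand *Il1f8* and inhibitors *Il1f5*, *Il1f10* and the decoy receptor *Il1r2* differed by log2 −0.12, −0.06, −0.03 and −0.05, and the neuronal receptor relatives *Il1rapl1* and *Il1rapl2* by −0.02 and −0.17.

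Several genes of this group lie side by side on the chromosome. The receptor genes *Il1r2*, *Il1r1*, *Il1rl2*, *Il18r1* and *Il18rap* form 1 cluster with no called member. In the ligand cluster of *Il1f5*, *Il1f6*, *Il1f8*, *Il1f9*, *Il1f10* and *Il1rn*, only *Il1f9* was called. *Il1a* and *Il1b* adjoin each other, and *Il1bos* is transcribed from the strand opposite to *Il1b*. None of these 3 was called, and *Il1bos* differed by log2 −0.06 (adjusted p = 0.725). Of all genes 26.7% were called, and these clusters are too small to be set against that share.

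Genes that act after IL-1 and IL-17 receptors were called higher in 2 of 14 cases, with none lower and a median of log2 0.03, where 14.9% of all genes were higher. Centring on ribosomal protein genes gave 2 higher and 3 lower, with a median of −0.17, where 48.1% of all genes were lower. *Relb*, an NF-kB subunit, stood at 0.42, 0.57 and 0.19 in OE ventricles, against −0.24, −0.27 and −0.19 in CTRL ventricles, and *Nfkbiz*, an IκB-like nuclear protein needed for *Il6* induction in macrophages, stood at 0.31, 0.38 and 0.18 in OE ventricles, against −0.24, −0.26 and −0.15 in CTRL ventricles. In both genes every OE array was above every CTRL array (log2 0.63, SE 0.10, adjusted p = 0.00399 and log2 0.51, SE 0.08, adjusted p = 0.00323). *Nfkbia*, the NF-kB inhibitor (log2 0.35, adjusted p = 0.343), and the kinase gene *Irak2* (log2 0.27, adjusted p = 0.0938) were not called. *Nfkbia* stood at 0.55, −0.02 and −0.07 in OE ventricles, against 0.20, −0.04 and −0.74 in CTRL ventricles. The groups overlapped, and the difference was log2 0.07 without CTRL array 3 and 0.15 without OE array 1. *Irak2* was at log2 0.17 without CTRL array 3. In the inflammasome list, which covers the proteins that mature IL-1β and IL-18, 1 of 6 genes (16.7%) rose, against 14.9% of all genes. That gene was *Pycard*, the adaptor ASC (log2 0.44, SE 0.12, adjusted p = 0.0272), whose call was lost without OE array 3 (adjusted p = 0.0584) or any 1 of the CTRL arrays (0.0517 to 0.0810), by one-way analysis of variance (0.112) and after centring on ribosomal protein genes (0.128). By its probe set with the largest variance *Pycard* was higher by log2 1.25 (adjusted p = 0.00372). Choosing by variance over all arrays favours probe sets that differ between the groups. *Casp4*, the mouse caspase-11 gene (log2 0.40, adjusted p = 0.257), and *Gsdmd*, the pore-forming gasdermin D (log2 0.08, adjusted p = 0.442), were not called. *Casp4* stood at 0.10, −0.10 and 0.79 in OE ventricles, against 0.20, −0.47 and −0.14 in CTRL ventricles. OE array 3 was far above the other arrays, and the difference was log2 0.14 without it and 0.23 without CTRL array 2.

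In the IL-6 group, *Il6* was the only called gene of 7 (14.3%, against 26.7% of all genes), and the median change was log2 −0.02. None of its 4 receptor chains was called. *Il6st*, which encodes gp130, was read by 4 probe sets and differed by log2 −0.02 (95% interval −0.23 to 0.20). *Il6ra*, the binding chain for IL-6, differed by log2 −0.19 (95% interval −0.45 to 0.08, adjusted p = 0.257), and *Il31ra* by log2 −0.24 (adjusted p = 0.123). *Il6ra* stood at −0.05, −0.33 and 0.06 in OE ventricles, against 0.06, 0.21 and −0.03 in CTRL ventricles, with the groups overlapping, and *Il31ra* at −0.35, 0.00 and −0.02 in OE ventricles, against 0.16, 0.04 and 0.14 in CTRL ventricles, with OE lower in every array. *Il11*, another gp130 ligand, differed by log2 0.01 (95% interval −0.20 to 0.21), so a change of *Il11* as large as that of *Il6* lies outside its interval. The itch-related ligand *Il31* (log2 0.17, adjusted p = 0.35) and *Il27ra*, the IL-27 receptor chain (log2 −0.17, adjusted p = 0.116), were not called either.

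Of 8 ligand and receptor genes of the gp130 family that lie outside the naming rule, 1 rose and 2 fell. The called genes were 37.5% of the list, against 26.7% of all genes. Analysis of variance called 0 higher and 1 lower, and ribosomal protein centring 0 higher and 3 lower. Of all genes, 14.1% were called by analysis of variance and 48.1% were lower with that centring. *Osmr*, the oncostatin M receptor, was higher in OE ventricles (log2 0.34, SE 0.08, adjusted p = 0.0234). *Lifr*, the receptor for leukaemia inhibitory factor and cardiotrophin-1, was lower (log2 −0.40, SE 0.08, adjusted p = 0.0119), and so was *Cntfr*, the receptor for ciliary neurotrophic factor (log2 −0.29, SE 0.07, adjusted p = 0.0213). The ligand genes *Ctf1* and *Lif* were not called (log2 −0.15, adjusted p = 0.423 and log2 0.09, adjusted p = 0.439). *Osmr* lost its call without OE array 3 (adjusted p = 0.0673), CTRL array 1 (0.0732) or CTRL array 3 (0.0510). *Cntfr* lost its call on leaving out any 1 OE array (highest adjusted p = 0.0621) or CTRL array 2 (0.0619). By the probe set with the largest variance, *Osmr* differed by log2 0.84, *Lifr* by log2 −1.14 and *Cntfr* by log2 −0.57, all called. That choice favours probe sets that differ between the groups. One-way analysis of variance called neither *Lifr* (adjusted p = 0.0539) nor *Osmr* (0.0738), and after centring on ribosomal protein genes *Osmr* was not called (0.193).

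The common gamma chain group held the largest decreases, 3 lower and none higher of 13 genes with a median change of log2 −0.11. Lower genes were 23.1% of the group and 11.8% of all genes. *Il15* stood at −0.48, −0.78 and −1.22 in OE ventricles, against 0.63, 0.48 and 0.74 in CTRL ventricles. Every OE array was below every CTRL array, and the difference was log2 −1.45 (SE 0.17, 95% interval −1.85 to −1.04, adjusted p = 0.00127). *Il15ra* stood at −0.26, −0.50 and −0.14 in OE ventricles, against 0.13, 0.63 and 0.47 in CTRL ventricles. The groups did not overlap (log2 −0.71, SE 0.14, adjusted p = 0.0106). Both of its probe sets were called lower (log2 −0.82, adjusted p over the 34945 probe sets of 1 symbol = 0.00505, and log2 −0.59, adjusted p = 0.0341). The analysis of variance did not call *Il15ra* (adjusted p = 0.0784). IL-15 acts on cells through *Il2rb* and the common gamma chain, and *Il2rb* was not called (log2 −0.12, 95% interval −0.32 to 0.08). The common gamma chain gene itself was not analysed here.

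*Il2*, the T cell growth factor, stood at −0.07, −0.25 and −0.18 in OE ventricles, against 0.17, 0.10 and 0.07 in CTRL ventricles. The decrease was small (log2 −0.28, SE 0.07, adjusted p = 0.0278), and its call was lost without OE array 2 (adjusted p = 0.0830), OE array 3 (0.0706), CTRL array 1 (0.0840) or CTRL array 2 (0.0623). A probe set that names both *Ntan1* and *Il2*, left out by the rule, was higher in OE ventricles by log2 0.78 and is described below. *Il9*, a mast cell and T cell ligand, and *Il21r*, the IL-21 receptor, were closest to a call (log2 −0.31, adjusted p = 0.0723 and log2 0.25, adjusted p = 0.0723). *Il9* stood at −0.27, −0.31 and 0.00 in OE ventricles, against 0.00, 0.28 and 0.08 in CTRL ventricles, with the groups overlapping, and *Il21r* at 0.30, 0.02 and 0.18 in OE ventricles, against −0.02, −0.17 and −0.05 in CTRL ventricles, with OE higher in every array. The other ligands of the group, *Il4*, *Il7* and *Il21*, differed by log2 −0.15, −0.01 and −0.05, and the receptor chains *Il2ra*, *Il4ra*, *Il7r* and *Il9r* by 0.11, 0.11, 0.03 and −0.11, all uncalled. Of the cell types that answer to these ligands, T cell markers gave array means of −0.09 to −0.04 in OE and 0.08 to 0.20 in CTRL ventricles, with 1 of 7 lower and none higher. Natural killer cell markers gave −0.12 to −0.04 in OE and 0.05 to 0.15 in CTRL ventricles, with 1 of 5 lower and none higher. Centring on ribosomal protein genes gave 5 of 7 T cell markers and 5 of 5 natural killer cell markers lower. One-way analysis of variance called 1 and 0 of them lower. Of all genes, 11.8% were lower by limma, 48.1% with centring on ribosomal protein genes and 6.18% by analysis of variance. The part of these cell types in the lower values of the group was not tested. In whole ventricles, fewer cells of a type and less RNA per cell cannot be told apart.

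Of 20 JAK, STAT and SOCS genes, the signal transducers of these receptors and their suppressors, 2 were higher and 3 lower, with a median of log2 −0.09, where 14.9% of all genes were higher and 11.8% lower. The list had 1 higher and 4 lower by analysis of variance, where 7.90% of all genes were higher and 6.18% lower. With centring on ribosomal protein genes it had 1 higher and 11 lower, with a median of −0.29. That centring called 7.57% of all genes higher and 48.1% lower, with a median of −0.23. *Stat5a*, a transducer of IL-2, IL-7 and IL-15 signals, stood at −0.46, −0.28 and −0.31 in OE ventricles, against 0.46, 0.33 and 0.27 in CTRL ventricles, and it was lower (log2 −0.70, SE 0.08, adjusted p = 0.00122). *Stat5b*, its close relative, and *Stat2*, used by interferons, were lower too (log2 −0.30, adjusted p = 0.0194 and log2 −0.32, adjusted p = 0.0107). *Socs2*, a suppressor of growth hormone and cytokine signals that STAT5 can induce, was higher (log2 0.88, SE 0.14, adjusted p = 0.00408), though one-way analysis of variance did not call it (adjusted p = 0.0516). *Socs3*, the suppressor induced through gp130 and STAT3, differed by log2 0.73 (adjusted p = 0.0761), and *Stat3* itself by log2 0.02. *Cish*, a suppressor that STAT5 induces, was not called (log2 −0.41, adjusted p = 0.105). *Stat6*, the transducer of IL-4, was called higher (log2 0.23, adjusted p = 0.0296) but was at log2 0.03 (adjusted p = 0.758) after centring on ribosomal protein genes and lost its call on leaving out any 1 array (adjusted p 0.0590 to 0.0846). *Stat5b* lost its call without OE array 1 (adjusted p = 0.0610), OE array 3 (0.0567) or CTRL array 2 (0.0593). *Socs3* gained a call without OE array 1 (adjusted p = 0.0488), without CTRL array 3 (0.0411) or without the less specific probe sets (0.0342), and was at log2 0.45 without OE array 2. *Cish* gained a call after centring on ribosomal protein genes (adjusted p = 0.0130) or with the replicate number as a block (0.0269), and was at log2 −0.25 without OE array 2. By the probe set with the largest variance, a choice that favours differences between the groups, *Stat5a* was at log2 −1.08 and *Stat5b* at −0.51.

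In the IL-10 group, 1 of 9 genes (11.1%) was lower, against 11.8% of all genes, and none was higher. The median was log2 −0.22. *Il10rb*, a chain shared by the receptors for IL-10, IL-22 and the lambda interferons, stood at −0.29, −0.24 and −0.05 in OE ventricles, against 0.05, 0.21 and 0.20 in CTRL ventricles. The groups did not overlap but lay close, and the difference was log2 −0.35 (SE 0.09, adjusted p = 0.0224), with probe sets at log2 −0.42 (adjusted p = 0.0154) and −0.28 (adjusted p = 0.133). Its call was lost without OE array 1 (adjusted p = 0.0777), OE array 2 (0.0673), CTRL array 2 (0.0688) or CTRL array 3 (0.0585). *Il10*, an anti-inflammatory ligand, differed by log2 −0.04 (95% interval −0.19 to 0.11), and none of the 3 measured ligands was called. The largest uncalled differences were those of *Il22ra2*, a soluble receptor that binds IL-22 (log2 0.28, adjusted p = 0.145), and *Il20rb* (log2 −0.27, adjusted p = 0.216). *Il22ra2* stood at −0.01, 0.07 and 0.44 in OE ventricles, against −0.25, −0.09 and 0.01 in CTRL ventricles, and *Il20rb* at 0.07, −0.18 and −0.11 in OE ventricles, against 0.52, −0.07 and 0.13 in CTRL ventricles. Both overlapped between groups. *Il24*, *Il20* and *Il10* lie in 1 cluster and none was called (log2 −0.22, adjusted p = 0.0568 and log2 −0.25, adjusted p = 0.106 for the first 2). The receptor chains *Il10ra*, *Il20ra* and *Il22ra1* differed by log2 0.05, −0.26 and −0.02 and were not called.

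In the IL-17 group, 1 of 9 genes was higher and 2 were lower, with a median of log2 −0.10. The called share was 33.3%, against 26.7% of all genes. *Il17rc*, a receptor chain that pairs with *Il17ra* for IL-17A and IL-17F, stood at 0.19, 0.22 and 0.16 in OE ventricles, against −0.20, −0.19 and −0.19 in CTRL ventricles. The gene value was higher by log2 0.38 (SE 0.06, adjusted p = 0.00416), but its 2 probe sets disagreed, one at log2 0.80 (adjusted p = 0.000444) and the other at −0.04 (adjusted p = 0.745). *Il17re*, the receptor chain for IL-17C and the gene next to *Il17rc*, stood at −0.16, −0.19 and −0.06 in OE ventricles, against 0.21, 0.11 and 0.23 in CTRL ventricles. Its 3 probe sets differed by log2 −0.39, −0.31 and −0.26, of which only the first was called on its own. The gene value was log2 −0.32 (SE 0.07, adjusted p = 0.0145), with the call lost without OE array 1 (adjusted p = 0.0520). With ribosomal protein centring *Il17rc* was at log2 0.18 (adjusted p = 0.0565). The ligand *Il17b* stood at −0.25, −0.07 and −0.23 in OE ventricles, against 0.35, 0.07 and 0.30 in CTRL ventricles. Its decrease (log2 −0.42, SE 0.10, adjusted p = 0.0165) lost its call without OE array 1 (adjusted p = 0.0602), OE array 3 (0.0528) or CTRL array 1 (0.0548). *Il17a*, the ligand of helper T cells, differed by log2 −0.07 (95% interval −0.25 to 0.12). *Il17ra* and *Il17rb*, receptor chains, were just outside the threshold (log2 0.22, adjusted p = 0.053 and log2 −0.23, adjusted p = 0.059). *Il17ra* stood at 0.00, 0.17 and 0.06 in OE ventricles, against −0.15, −0.10 and −0.18 in CTRL ventricles, with OE higher in every array, and *Il17rb* at −0.03, −0.15 and −0.14 in OE ventricles, against 0.14, 0.21 and 0.03 in CTRL ventricles, with OE lower in every array. The ligands *Il17d* and *Il25* and the receptor relative *Il17rd* differed by log2 −0.05, −0.21 and −0.10, all uncalled.

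The IL-12 group, ligands and receptors that drive type 1 helper and IL-17-producing T cells, had 1 of 5 genes lower and none higher. Lower genes were 20% of this group and 11.8% of all genes. *Il12rb2*, the signalling chain of the IL-12 receptor, stood at −0.08, −0.21 and −0.20 in OE ventricles, against 0.34, 0.08 and 0.09 in CTRL ventricles. The decrease (log2 −0.33, SE 0.09, adjusted p = 0.0305) lost its call on leaving out any 1 OE array (highest adjusted p = 0.0852) or CTRL array 1 (0.0741). The IL-23 subunit *Il23a* and *Il12rb1*, a receptor chain shared by IL-12 and IL-23, were not called (log2 −0.26, adjusted p = 0.179 and log2 −0.25, adjusted p = 0.145). *Il23a* stood at −0.27, 0.09 and −0.41 in OE ventricles, against −0.09, 0.13 and 0.16 in CTRL ventricles, with the groups overlapping, and *Il12rb1* at −0.02, −0.03 and −0.39 in OE ventricles, against 0.07, 0.02 and 0.21 in CTRL ventricles, with OE lower in every array. The 2 subunits of IL-12 itself, *Il12a* and *Il12b*, differed by log2 0.09 and −0.13 and were not called.

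Of the 11 remaining genes, 2 (18.2%) were lower, against 11.8% of all genes. *Il4i1*, an enzyme that oxidises phenylalanine and carries the name because IL-4 induces it in B cells, stood at −0.24, −0.27 and −0.12 in OE ventricles, against 0.62, 0.12 and 0.28 in CTRL ventricles. The groups did not overlap (log2 −0.55, SE 0.13, adjusted p = 0.017), and the call was lost without OE array 1 (adjusted p = 0.0572) or OE array 2 (0.0534). A probe set that names both *Il4i1b* and *Il4i1*, left out by the rule, differed by log2 −0.16 and was not called. *Il13ra2*, a decoy receptor for IL-13, stood at −0.11, −0.07 and −0.22 in OE ventricles, against 0.51, 0.07 and 0.20 in CTRL ventricles. CTRL array 1 was the highest. The decrease (log2 −0.40, SE 0.12, adjusted p = 0.0392) lost its call on leaving out any 1 OE array (highest adjusted p = 0.111), CTRL array 1 (0.0760) or CTRL array 3 (0.0615). *Il5*, the eosinophil growth factor, and *Il5ra*, its receptor, had the largest uncalled differences (log2 −0.25, adjusted p = 0.12 and log2 −0.22, adjusted p = 0.222). *Il5* stood at 0.02, −0.02 and −0.17 in OE ventricles, against 0.25, 0.34 and −0.02 in CTRL ventricles, and *Il5ra* at −0.31, −0.08 and 0.08 in OE ventricles, against 0.18, −0.08 and 0.25 in CTRL ventricles. In both the groups overlapped. *Il34*, a ligand of the macrophage growth factor receptor, differed by log2 0.14, the ligands *Il3*, *Il13* and *Il16* by −0.02, −0.12 and −0.17, and the receptor chains *Il3ra* and *Il13ra1* by 0.19 and 0.14, all uncalled.

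Receptors of the common beta chain, which serve IL-3, IL-5 and granulocyte-macrophage colony-stimulating factor, and the thymic stromal lymphopoietin pair lie outside the naming rule but act with these genes. Of 6 genes, 5 were higher and none lower, with a median of log2 0.41, where 14.9% of all genes were higher. *Csf2rb* stood at 0.39, 0.29 and 0.37 in OE ventricles, against −0.44, −0.44 and −0.33 in CTRL ventricles, with every OE array above every CTRL array (log2 0.76, SE 0.07, adjusted p = 0.000481). *Csf2rb2*, a near-identical copy whose probes may share signal with it, stood at 0.62, 0.17 and 0.67 in OE ventricles, against −0.73, −0.54 and −0.17 in CTRL ventricles (log2 0.97, SE 0.17, adjusted p = 0.00674). *Csf2ra*, *Crlf2* and *Tslp* were higher by smaller amounts (log2 0.42, adjusted p = 0.0253, log2 0.39, adjusted p = 0.0253 and log2 0.39, adjusted p = 0.037), while the ligand *Csf2* differed by log2 −0.14. One-way analysis of variance called 1 of the 6. Ribosomal protein centring called 2 higher and 1 lower, with *Csf2* the lower one (adjusted p = 0.00980). That centring called 7.57% of all genes higher and 48.1% lower. *Csf2ra* lost its call without OE array 2 (adjusted p = 0.0759), OE array 3 (0.0724) or CTRL array 1 (0.0508). *Crlf2* lost its call without OE array 1 (adjusted p = 0.0848), OE array 2 (0.0709), CTRL array 1 (0.0746) or CTRL array 2 (0.0776), and *Tslp* on leaving out any 1 array (adjusted p 0.0526 to 0.112).

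**Figure D3:**
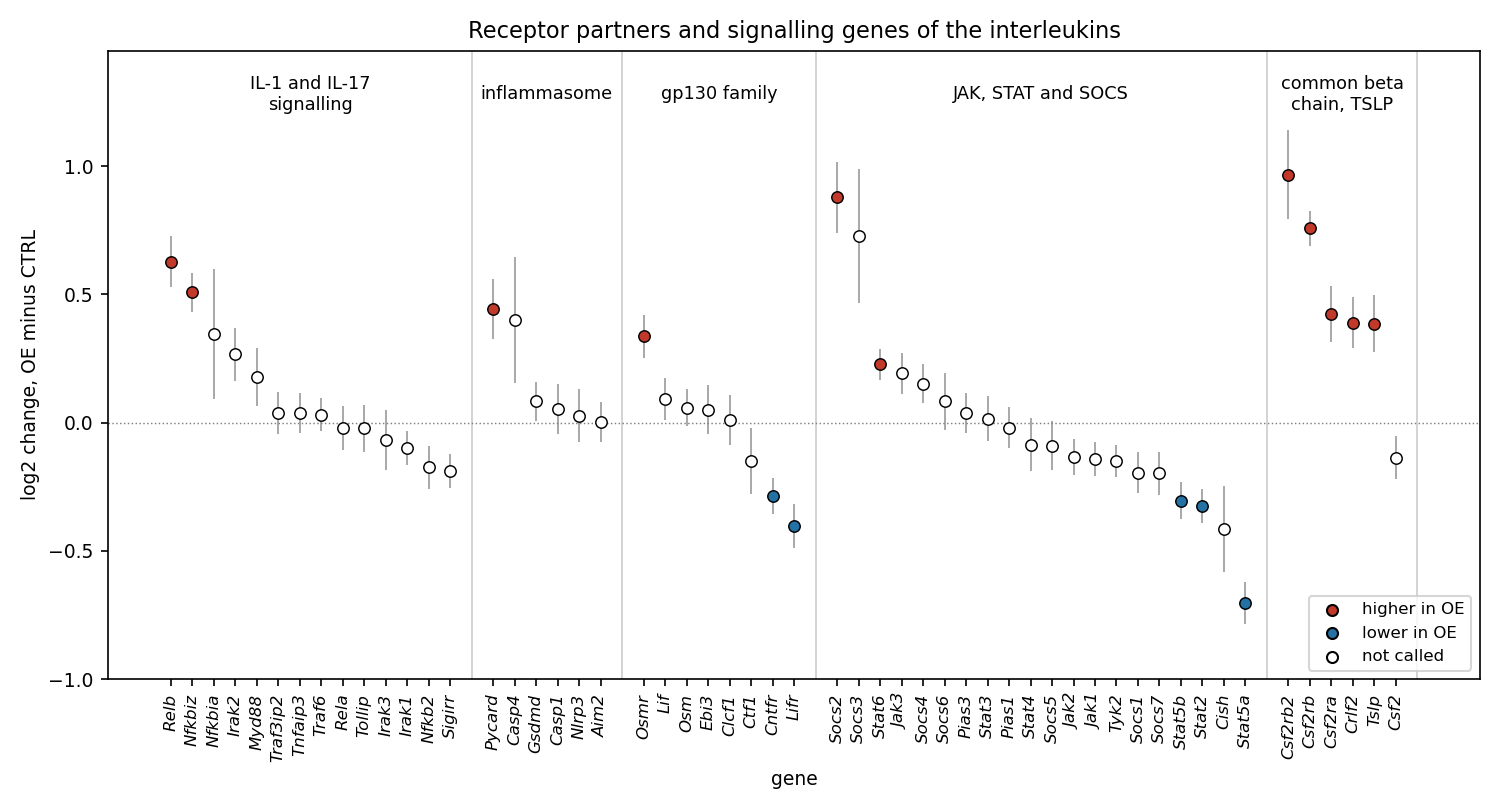
Log2 change, OE minus CTRL, of signalling partners outside the naming rule, by list, with standard errors. Red points are called higher, blue points lower and white points not called. In the common beta chain list 5 of 6 genes are called higher, while the JAK, STAT and SOCS list has 2 higher and 3 lower of 20. Among all genes 14.9% are called higher and 11.8% lower.

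Split by role, 2 of 31 ligands were higher and 4 lower, with a median change of log2 −0.12. Of 33 receptor chains 1 was higher and 4 lower, with a median of −0.11. Of 7 inhibitors 1 was higher and 1 lower, with a median of −0.03. The called shares of the 3 roles were 19.4%, 15.2% and 28.6%, against 26.7% of all genes. The size of the change without its sign had a median of log2 0.17 among members and 0.17 among all genes.

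Several members were read by probe sets whose values disagreed. *Il4ra*, the binding chain for IL-4, had probe sets between log2 −0.33 and 0.55, with 1 of 3 called higher (adjusted p = 0.0230). *Il1rap* ranged from −0.16 to 0.38 over 5 probe sets, with 1 called higher (adjusted p = 0.0178), and *Il13ra1* from −0.08 to 0.41, with 1 of 5 called higher (adjusted p = 0.0426). *Il1rl2* had 1 of 2 probe sets called higher (adjusted p = 0.0471), whereas *Il6st* had none of 4, at −0.24 to 0.19. The gene means of these 5 genes were not called.

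**Figure D4:**
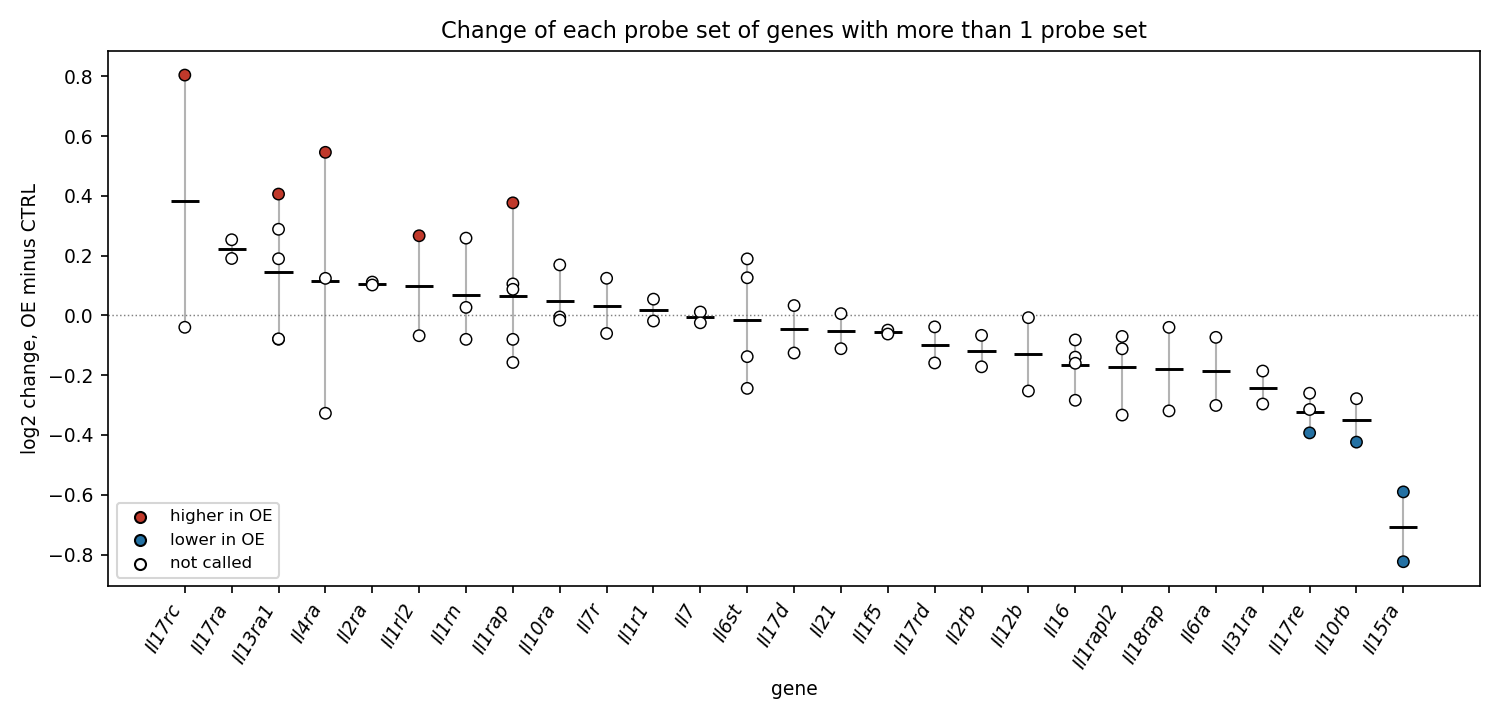
Log2 change, OE minus CTRL, of every probe set of members with several probe sets, red or blue where the probe set was called higher or lower on its own, with a bar for the gene value. The 2 probe sets of *Il17rc* lie at 0.80 and −0.04, and those of *Il4ra* span −0.33 to 0.55.

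Marker genes of cell types in the ventricle differed between the groups too. Their counts stand beside 14.9% higher and 11.8% lower among all genes. Array means of 8 fibroblast markers lay between 0.23 and 0.46 in OE and between −0.74 and −0.26 in CTRL ventricles, with 5 higher and none lower, and those of 10 macrophage markers between −0.01 and 0.36 in OE and −0.39 and −0.07 in CTRL ventricles, with 5 higher and none lower. Array means of 8 cardiomyocyte markers lay between −0.23 and −0.18 in OE and 0.19 and 0.25 in CTRL ventricles, with 1 higher and 5 lower, and those of 8 endothelial markers between −0.19 and 0.04 in OE and 0.09 and 0.35 in CTRL ventricles, with 3 lower. Neutrophil markers overlapped, at −0.08 to 0.65 in OE and −0.30 to 0.14 in CTRL ventricles, with none of 5 called. B cell markers gave −0.06 to 0.01 in OE and −0.03 to 0.07 in CTRL ventricles with none of 4 called, dendritic cell markers −0.13 to 0.01 in OE and 0.03 to 0.14 in CTRL ventricles with 1 of 4 lower, and mast cell markers −0.20 to −0.06 in OE and −0.01 to 0.33 in CTRL ventricles with 3 of 6 lower. These counts depended on the scaling and the test. Centring on ribosomal protein genes gave 2 macrophage markers higher and 1 lower, and 5 fibroblast markers higher. It also gave 6 cardiomyocyte, 7 endothelial, 4 mast cell, 3 neutrophil, 3 dendritic cell and 2 B cell markers lower. No other marker of these cell types was called with this centring. The T cell and natural killer cell markers, 5 of 7 and 5 of 5 lower with it, are described above. One-way analysis of variance called 1 macrophage and 2 fibroblast markers higher, 1 cardiomyocyte marker higher and 4 lower, 1 dendritic cell marker lower, and no endothelial, mast cell, neutrophil or B cell marker. The part of these differences in the values of *Il6*, *Il33*, *Il15* and the other called genes was not tested.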

How the data were processed

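RNA of whole ventricles from 3 OE and 3 CTRL mice was hybridised to Affymetrix whole-genome mouse arrays, 1 per mouse. The authors summarised the arrays with RMA in GeneSpring GX, quantile normalised them and subtracted from every probe set the median of the 6 arrays, and they deposited the resulting log2 values. The log base is not stated and was taken as 2, and these centred values hold no expression level, so no filter on low signal was applied. The number of arrays limits the precision.

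Here the 64 array control probe sets, the 932 that name several symbols and the 9160 with no gene name were left out, and the remaining 34945 were averaged per symbol into 18193 genes. Groups were compared with limma 3.58.1 in R 4.3.3 (lmFit and eBayes, Benjamini-Hochberg adjustment over all genes, two-sided), on steps tested on simulated data, and tables and plots were made with Python 3.11.15. Probe sets of 1 symbol taken singly were adjusted over the 34945 such probe sets. Probe sets that name several symbols were adjusted over 45037 probe sets. P-values measure the spread between these mice. Members, families, partner and marker lists were chosen with earlier results of these data known. Values on every array are given for all called members and for the 2 uncalled members of each family with the largest changes. Partner genes named are the called ones and up to 2 uncalled ones of each list by size, with *Stat3* added for its role. All 73 members kept their symbol in the RefSeq gene table, which was used for neighbours within 500 kb. Alternatives were array weights, other choices of probe set, other centrings, a replicate block, fold limits and leaving out each array. One-way analysis of variance, the test the methods name, was a further alternative, run on unfiltered gene means.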

Additional observations from a re-analysis of the deposited data

Results flagged for a closer look

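One probe set outside the comparisons above names both *Ntan1*, an N-terminal amidase gene, and *Il2*, and was left out because it names more than 1 symbol. It stood at 0.45, 0.32 and 0.40 in OE ventricles, against −0.32, −0.48 and −0.38 in CTRL ventricles. It was higher in OE ventricles by log2 0.78 (SE 0.08, adjusted p = 0.00098 by limma over 45037 probe sets) and drew attention because this signal lies outside the genes reported. The probe set that names *Il2* alone differed by log2 −0.28, in the opposite direction. Which of the 2 genes the shared probe set reads was not tested.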

How the results depend on the processing

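The 4 increases and 10 decreases among the 73 interleukin genes became 3 and 2 by one-way analysis of variance (6.85% of members, with 14.1% of all genes called) and also 3 and 2 with a 1.5-fold limit, which removes small changes by construction. The probe set with the largest variance gave 7 higher and 9 lower, and probe sets tested on their own 8 higher and 9 lower. In the latter count a gene entered when any 1 of its probe sets was called, so genes with several had more chances. No share of all genes is available for that count. The choice by variance favours probe sets that differ between the groups, and 18.4% of all genes were higher and 13.2% lower with it. Centring on ribosomal protein genes gave 3 higher and 42 lower, where 7.57% and 48.1% of all genes were. Leaving out 1 array gave 4 to 5 higher and 4 to 9 lower genes, the fewest without OE array 1, and fits without an array have fewer samples. In these fits 10.1% to 13.0% of all genes were higher and 6.83% to 9.51% lower. Without OE array 1, 5.48% of members and 6.83% of all genes were lower. Array weights, centring on array medians, leaving out less specific probe sets and a 1.2-fold limit gave 4 to 5 higher and 10 lower. The first 3 of these called 14.2% to 15.8% of all genes higher and 10.9% to 12.2% lower. Beyond those constructions, the cause of the differences was not tested. Replicate numbers were not used as pairs in the main comparison. Same-numbered OE and CTRL arrays had correlations of their deviations from the group mean of 0.07, −0.12 and 0.03. Not every array correlated best with its own number. Such deviations cancel within a group of 3 arrays, so these correlations cannot exclude a pairing. With the replicate number as a block, 4 members were higher and 9 lower, where 13.0% and 9.23% of all genes were. *Il6* (log2 1.72 to 2.05), *Il18bp* (0.89 to 1.19) and *Il15* (−1.65 to −1.25) were the only 3 of the 14 called members that kept their call in all 13 alternatives run on them. Each of these 3 genes, like *Il33*, was read by 1 probe set. The alternatives that choose among probe sets therefore left their change as it was by construction. Over the 28 members named by size, 306 of 364 alternative values had the direction and side of the threshold given above, 40 lost and 18 gained a call, and 0 turned direction. These members were picked for a call or a large change. One-way analysis of variance and the replicate block keep the change itself, and leaving out 1 array cannot reverse groups that do not overlap. The tally of directions is therefore no test of stability.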

Other observations

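Another 2 probe sets name an interleukin gene together with a second symbol. The one for *Il4i1b* and *Il4i1* differed by log2 −0.16 (adjusted p = 0.29 by limma over probe sets), where the probe set of *Il4i1* alone differed by log2 −0.55. The one for *Iltifb* and *Il22*, near-identical genes for the IL-10 family ligand IL-22, differed by log2 0.20 (adjusted p = 0.18).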
